A study of Oryza sativa Indica Group with 18 samples.

Results

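The genes described here are 14 rice genes, measured by 17 probe sets, that carry only a LOC number and no gene name, and whose transcripts stood high after 1 h at 37 °C and near the control level after the following step at 42 °C. They were chosen from the measured values. The rule took group means of log2(intensity + 16) and kept probe sets matched to exactly 1 unnamed gene whose 37 °C mean lay at least 2 log2 above the control mean, and whose 42 °C mean lay within 0.5 log2 of it, in both cultivars. Of 17905 genes that a probe set matched alone, 15448 were unnamed and 14 met the rule. One of them, LOC9267997, goes against the description: its other 3 probe sets stayed far above control at 42 °C. The heat differences of these members are therefore given as a description, without a test. Whole seedlings of the indica cultivars Annapurna and IR64, 7 days old and grown hydroponically, were measured on 18 Affymetrix rice arrays, in 6 groups of 3 arrays each, labelled as biological replicates. Controls of each cultivar stood at 28 °C for 3 h. A second group was held at 37 °C for 1 h. The third had 37 °C for 1 h and then 42 °C for 2 h, and is called 42 °C here. The 37 °C seedlings were thus sampled 2 h earlier than the others. The labels list no group kept at 37 °C for 3 h and no control of 1 h at 28 °C. Temperature and elapsed time can therefore not be told apart, in the 37 °C differences from control or in the fall after 37 °C. The series title names a heat tolerant and a heat susceptible cultivar but does not assign these words, so both are called by their names here.

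Heat makes plant cells switch on a transcriptional programme led by heat stress transcription factors, which bind short repeated elements in promoters and raise the synthesis of chaperones and other protective proteins. A mild heat step given first primes seedlings for a harsher one, and transcripts of the programme differ in how long they stay up. HSFA2A, a heat stress factor gene of rice, and the chaperone genes HSP17.8 and HSP26.2 are named genes that met the same 4 thresholds. A LOC number is a locus identifier that says nothing about function, and the annotation used here gives the 14 genes no synonym and no description beyond protein coding. No role is therefore assigned to any of them.

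Values are linear intensities per probe set, and log2 differences are given ± SE from 1 fit over all 18 arrays, with n = 3 arrays in every group. On each array 34.2 to 35.3% of probe sets exceeded an intensity of 50, and the medians of the arrays lay within 0.037 log2 of each other. The number of arrays limits the precision. Some arrays stood apart in markers of grain tissue: AMY1.1, which encodes an amylase, read 37.9, 41.6 and 3532 on replicates 1 to 3 of the IR64 controls, and 5.49, 5.48 and 124 on those of Annapurna. The summed signal of the 5 grain markers found of 8 listed was 11653 to 13246 on the IR64 42 °C arrays, 2955 to 3261 on the Annapurna 42 °C arrays, and at most 4094 on the controls. The contrast in this sum at 42 °C lay mostly in AMY1.1, with means of 9349.8 in IR64 and 5.48 in Annapurna. The globulin gene GLB1 was lower in IR64, with 2810.2 against 3122. The grain marker EP3A was higher in IR64 at 42 °C, with means of 46.3 against 6.03. On replicates 1 to 3 of the IR64 controls EP3A read 8.65, 6.98 and 102. The grain marker AMY1.3 was highest at 37 °C. Its means at control, 37 °C and 42 °C were 9.93, 95.7 and 7.98 in Annapurna and 10.5, 668 and 93.0 in IR64. The storage protein gene GLUA1 read at most 4.26 on every array. Of the green tissue markers, 3 of 5 were found and exceeded 50 on all 18 arrays, but 2 of them changed over the steps. PORA had means of 2594, 6011 and 13933 at control, 37 °C and 42 °C in Annapurna, and 1635, 4074 and 11367 in IR64. CHL1 went the other way, with 4124, 3372 and 2223 in Annapurna and 4514, 3977 and 1651 in IR64. CAB2R changed less, with 50224, 49400 and 52874 in Annapurna and 42729, 44383 and 50848 in IR64. The 2 root transport genes found of 4 root markers, osysl15 and Nrat1, summed to 212 to 259 at 37 °C against 1557 to 1918 in controls and 3143 to 4768 at 42 °C. Nrat1 made up most of this sum, and in Annapurna osysl15 had means of 28.2 in controls and 32.6 at 37 °C, against 143 and 83.9 in IR64. Actin signal at the 3' end exceeded that at the 5' end by log2 4.62 to 6.31 over the arrays, with the highest value in an Annapurna control. In controls this excess was 5.09 to 6.31 in Annapurna and 4.62 to 5.03 in IR64, without overlap. At 37 °C it was 5.25 to 5.45 in Annapurna and 4.77 to 5.14 in IR64, again without overlap. At 42 °C the ranges overlapped, with 5.15 to 5.40 and 5.03 to 5.22. In RNA from whole seedlings, fewer cells of a type and less RNA per cell cannot be told apart. The part of these differences in the results below was not tested, apart from the values without single arrays.

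**Figure D1:**
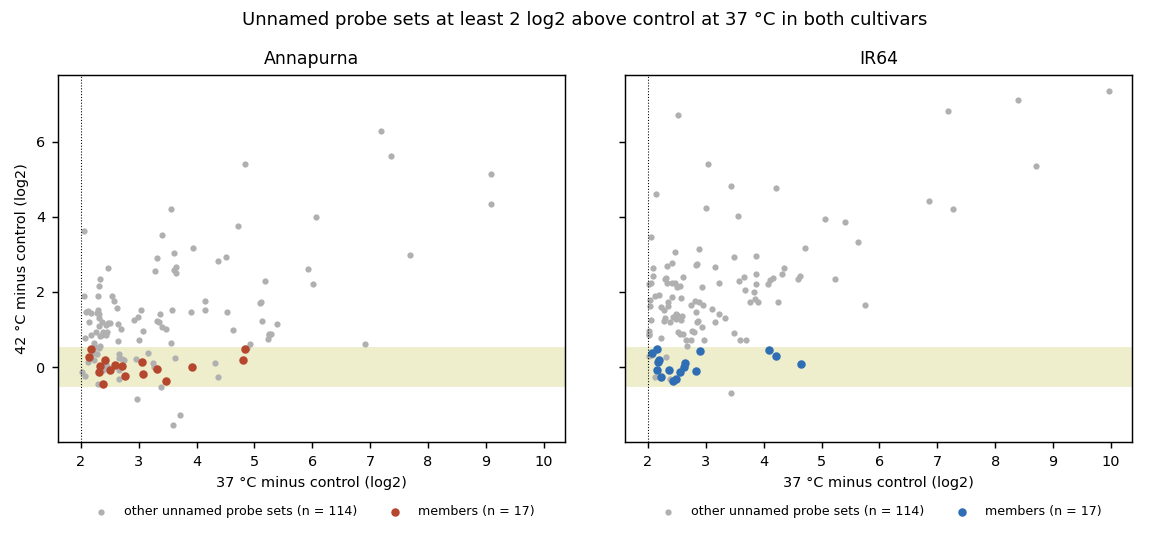
Each point is 1 of the 131 unnamed probe sets that stood at least 2 log2 above control at 37 °C in both cultivars, with the difference from control at 37 °C on the horizontal axis and at 42 °C on the vertical axis, both in log2 and with 1 panel per cultivar. The 17 members, in colour, lie in the shaded band within 0.5 log2 of the control, and most of the 114 other probe sets lie above it.

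A return to the control level was the less common course among unnamed genes that stood high at 37 °C. Of 19244 unnamed probe sets, 131 stood at least 2 log2 above control at 37 °C in both cultivars. At 42 °C, 17 of these were within the window in both cultivars, 84 were above it in both, none was below it in both, and 30 took different positions in the 2 cultivars. Over the 131, the median 42 °C difference was log2 0.93 in Annapurna and 1.73 in IR64. Among named genes, 54 of 3192 probe sets passed the threshold at 37 °C, and 8 of the 54 (14.8%) were within the window, beside 13% of the unnamed ones. These shares were not tested against each other. Just inside the threshold at 37 °C lay LOC4330542, whose smaller 37 °C difference of the cultivars was log2 2.06, LOC4341421 with 2.15 and 1 probe set of LOC4332189 with 2.15. Just outside it lay LOC4331670 with 1.998, LOC4338539 with 1.97 and LOC4347195 with 1.94. At the edge of the window the larger absolute 42 °C difference was 0.49 for LOC4344351, 0.48 for LOC4325355 and 0.47 for LOC4332595, against 0.56 for LOC4338896, 0.68 for LOC4338925 and 0.70 for LOC4339653 outside it.

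**Figure D2:**
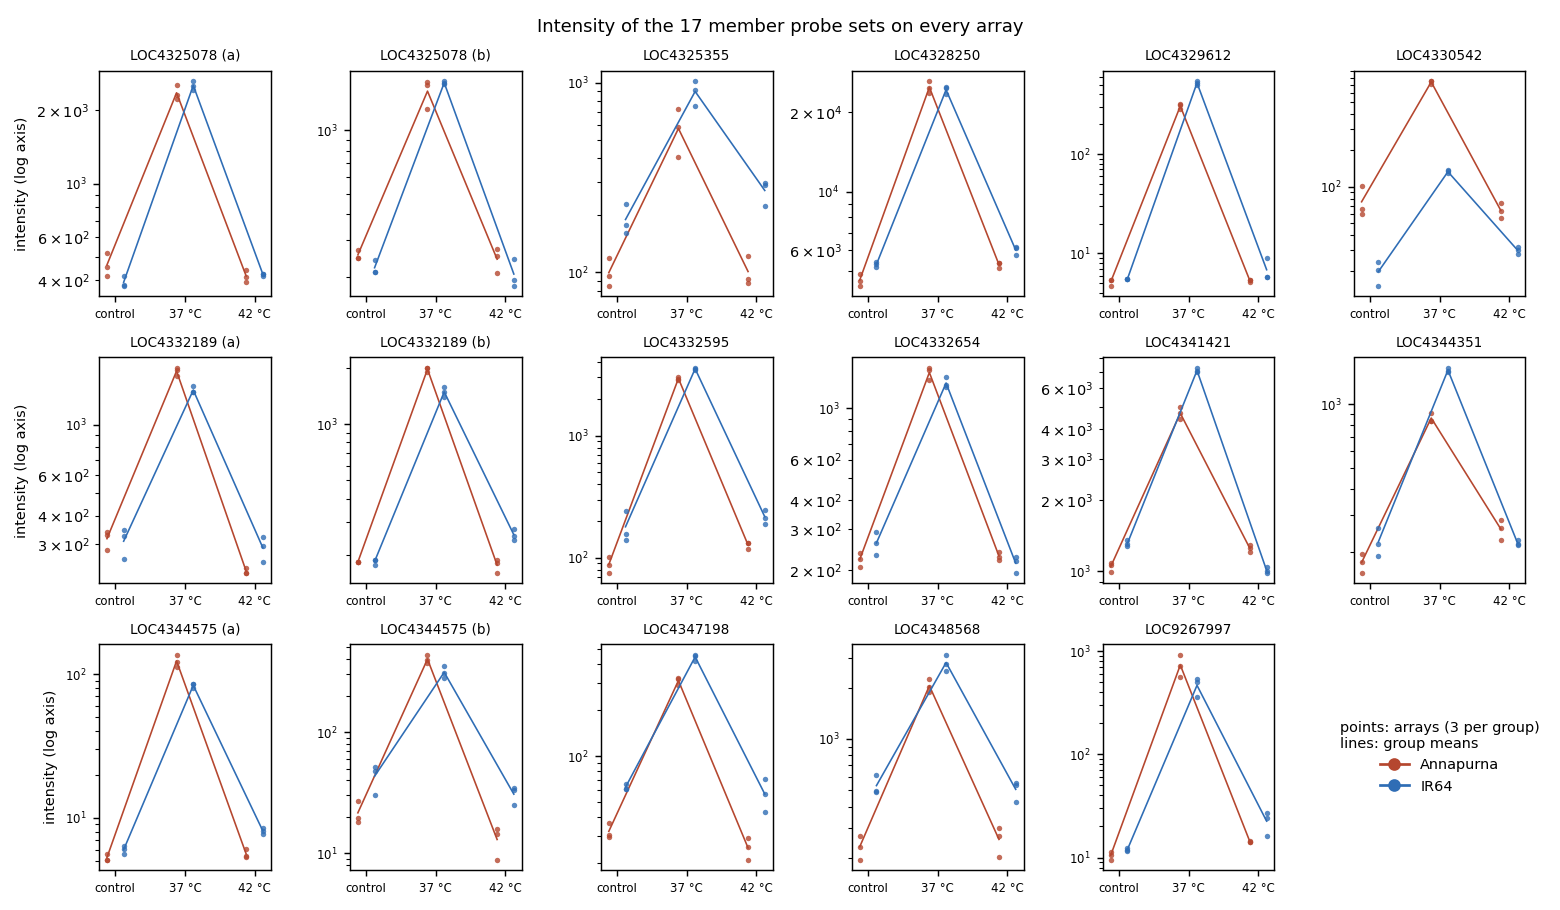
Each panel shows 1 of the 17 member probe sets, with the intensity of every array as a point on a logarithmic vertical axis and the means of the control, 37 °C and 42 °C groups joined by a line for each cultivar. Letters a and b mark 2 probe sets of 1 gene. In every panel all 37 °C points lie above all control and 42 °C points of the same cultivar.

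Over the 17 probe sets the 37 °C difference from control had a median of log2 2.71 in Annapurna (2.15 to 4.83) and 2.48 in IR64 (2.06 to 4.64). The members started from different positions. For 3 probe sets every control array read under 50, for 11 every control array read 50 or more, and 3 lay between. All 17 exceeded 50 on all 6 arrays at 37 °C. In both cultivars every 37 °C array of all 17 lay above every control, a contrast that the rule used. Over all probe sets 15.5% lay wholly above control at 37 °C in Annapurna and 16.3% in IR64, and 17.7 and 51.7% lay wholly below. LOC4329612 was among those near background without heat. Its probe set read 4.70, 5.37 and 5.42 in the Annapurna controls, 286, 311 and 316 after 37 °C, then 5.41, 5.12 and 5.41 at 42 °C. It read 5.55, 5.48 and 5.55 in the IR64 controls, 524, 545 and 492 after 37 °C, then 5.78, 9.06 and 5.75 at 42 °C. All 6 arrays at 37 °C stood far above the rest, and no array of another group read above 9.06. Its 37 °C difference was log2 3.92 ± 0.07 in Annapurna and 4.64 ± 0.07 in IR64. LOC9267997, on the probe set that met the rule, read 9.51, 10.7 and 11.2 in the Annapurna controls, 711, 927 and 567 after 37 °C, then 14.1, 14.1 and 14.5 at 42 °C. In the other cultivar it read 11.8, 11.7 and 12.3 in the IR64 controls, 502, 359 and 540.1 after 37 °C, then 16.3, 27.2 and 24.1 at 42 °C. On this probe set the 3 arrays at 42 °C lay slightly above the controls in both cultivars, and the 37 °C difference was log2 4.80 ± 0.17 in Annapurna and 4.09 ± 0.17 in IR64. One probe set of LOC4344575 had the same start, with 5.11 to 5.65 in Annapurna controls, 113 to 137 at 37 °C and 5.37 to 6.03 at 42 °C, and with 5.61 to 6.37, 80.2 to 85.4 and 7.76 to 8.45 in IR64. Log2 differences from such low levels depend on the amount added before the log: for LOC4329612 in IR64 the difference was 6.32 with 1 added and 3.07 with 64, against 4.64 with 16.

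The 3 probe sets with a low but measurable control signal belonged to LOC4330542, LOC4347198 and LOC4344575. LOC4330542 read 60.0, 65.1 and 101 in the Annapurna controls, 747, 751 and 708 after 37 °C, then 73.0, 55.0 and 63.2 at 42 °C. It read 20.8, 15.1 and 23.8 in the IR64 controls, 134, 129 and 137 after 37 °C, then 30.1, 31.9 and 27.9 at 42 °C. Every Annapurna array was above every IR64 array of the same step, and the highest Annapurna control was replicate 3. The 37 °C difference of LOC4330542 was log2 3.07 ± 0.14 in Annapurna and 2.06 ± 0.14 in IR64, and the IR64 value was the smallest 37 °C difference of any member. LOC4347198 read 29.8, 36.7 and 30.7 in the Annapurna controls, 320.4, 324 and 289 after 37 °C, then 25.5, 29.2 and 21.1 at 42 °C. It read 61.2, 65.8 and 61.6 in the IR64 controls, 419.7, 454 and 459.8 after 37 °C, then 56.3, 70.8 and 43.1 at 42 °C. Its controls and 42 °C arrays overlapped in IR64 and did not in Annapurna, where the 42 °C arrays were the lower. The 37 °C difference was log2 2.76 ± 0.12 in Annapurna and 2.54 ± 0.12 in IR64. The further probe set of LOC4344575 read 18.1 to 27.1 in Annapurna controls, 373 to 436 at 37 °C and 8.83 to 15.8 at 42 °C. In IR64 it read 30.3 to 51.9, 277 to 348 and 24.8 to 34.5. Both probe sets of this gene thus peaked at 37 °C, with a correlation of 0.98 over the 18 arrays.

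LOC4332595 had the largest 37 °C difference of the members in Annapurna. It read 102, 75.3 and 87.4 in the Annapurna controls, 3013, 2880.4 and 2928 after 37 °C, then 117, 133 and 132 at 42 °C. It read 139, 157 and 243 in the IR64 controls, 3598, 3526 and 3463 after 37 °C, then 249, 191 and 212 at 42 °C. The 37 °C arrays of each cultivar lay close together and far above the rest, the highest control was IR64 replicate 3, and the 37 °C difference was log2 4.83 ± 0.15 in Annapurna and 4.22 ± 0.15 in IR64. LOC4328250 was well above background in every group. It read 4390.1, 4593 and 4886 in the Annapurna controls, 26282, 23660.3 and 24658 after 37 °C, then 5152, 5356 and 5368 at 42 °C. In the second cultivar it read 5393, 5316 and 5202 in the IR64 controls, 24709.7, 23398 and 24824 after 37 °C, then 6126, 6159.8 and 5762 at 42 °C. At 42 °C all 3 arrays of each cultivar stayed above all 3 controls, by log2 0.20 in Annapurna and 0.18 in IR64 on average, inside the window of the rule. Its 37 °C difference was log2 2.42 ± 0.046 in Annapurna and 2.19 ± 0.046 in IR64. LOC4341421 read 1089, 1058 and 989 in the Annapurna controls, 4673, 4414 and 4964 after 37 °C, then 1254, 1205 and 1289 at 42 °C. It read 1301, 1274 and 1358 in the IR64 controls, 7307, 7054 and 6979 after 37 °C, then 983, 1002 and 1038 at 42 °C. The 42 °C arrays of LOC4341421 lay above the controls in Annapurna (log2 0.25) and below them in IR64 (-0.37), with no overlap in either cultivar. Its 37 °C difference was log2 2.15 ± 0.046 in Annapurna and 2.43 ± 0.046 in IR64.

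Of the genes measured by more than 1 member probe set, LOC4325078 gave the closest pair. The first read 520.3, 452 and 415 in the Annapurna controls, 2315, 2226 and 2545 after 37 °C, then 395, 414 and 439.7 at 42 °C. It read 418, 379 and 382 in the IR64 controls, 2530.3, 2644 and 2422 after 37 °C, then 426, 426 and 418 at 42 °C. These 3 arrays per step lay close together. The second read 248, 248 and 271 in the Annapurna controls, 1689, 1268 and 1647 after 37 °C, then 252, 272 and 209 at 42 °C. It read 241, 213 and 212 in the IR64 controls, 1675, 1651 and 1716 after 37 °C, then 182, 245 and 195 at 42 °C. Both were high at 37 °C alone, their controls and 42 °C arrays overlapped in Annapurna, and over the 18 arrays they correlated at 0.991. The 37 °C differences were log2 2.32 ± 0.072 in Annapurna and 2.64 ± 0.072 in IR64 on the first and 2.5 ± 0.12 in Annapurna and 2.83 ± 0.12 in IR64 on the second. The member probe sets of LOC4332189 read alike in shape. The first read 283, 338 and 330.2 in the Annapurna controls, 1772, 1739.8 and 1629 after 37 °C, then 225, 236 and 225 at 42 °C. It read 257, 325 and 345 in the IR64 controls, 1389, 1384 and 1472 after 37 °C, then 252, 322 and 293 at 42 °C. The second, whose probes may bind further transcripts by its suffix x, read 183, 183 and 184 in the Annapurna controls, 1981, 1997 and 1905 after 37 °C, then 160.4, 182 and 188 at 42 °C. It read 177, 188 and 189 in the IR64 controls, 1400.0, 1482 and 1571 after 37 °C, then 240.1, 277 and 253 at 42 °C. They differed at 42 °C: in Annapurna the first lay below its controls on all 3 arrays (log2 -0.44) while the second overlapped them, and in IR64 the first overlapped them while the second lay above (log2 0.44). The 37 °C differences were log2 2.38 ± 0.10 in Annapurna and 2.15 ± 0.10 in IR64 on the first and 3.31 ± 0.059 in Annapurna and 2.90 ± 0.059 in IR64 on the second.

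On their member probe sets, LOC4348568 and LOC4325355 stood lower in Annapurna than in IR64 at every step. LOC4348568 read 233, 195 and 269.6 in the Annapurna controls, 2254, 1880.0 and 2016 after 37 °C, then 298, 270.5 and 201 at 42 °C. It read 491, 486 and 617 in the IR64 controls, 3125, 2519.9 and 2769 after 37 °C, then 550.1, 539 and 426 at 42 °C. All Annapurna arrays lay below the IR64 arrays of the same step, and the 37 °C difference was log2 3.06 ± 0.15 in Annapurna and 2.37 ± 0.15 in IR64. LOC4325355 read 118, 95.5 and 84.6 in the Annapurna controls, 726, 586 and 407 after 37 °C, then 92.6, 87.9 and 122 at 42 °C. It read 229, 162 and 178 in the IR64 controls, 757, 917 and 1022 after 37 °C, then 296, 225 and 289 at 42 °C. Its replicates were the most spread of the members, with the largest SE, and the Annapurna 37 °C mean was 573 ± 159.8 (SD). The 37 °C difference of LOC4325355 was log2 2.32 ± 0.20 in Annapurna and 2.15 ± 0.20 in IR64. LOC4344351, just inside the window of the rule, read 160.1, 197 and 181 in the Annapurna controls, 914, 833 and 836 after 37 °C, then 283, 262 and 228 at 42 °C. It read 261, 219 and 193 in the IR64 controls, 1442, 1486 and 1418 after 37 °C, then 229, 219 and 216 at 42 °C. Its 42 °C arrays lay above the controls in Annapurna (log2 0.49) and among them in IR64 (-0.0072), and the 37 °C difference was log2 2.17 ± 0.10 in Annapurna and 2.62 ± 0.10 in IR64. The last member, LOC4332654, read 206 to 237 in Annapurna controls and 232 to 291 in IR64 controls. At 37 °C it read 1318 to 1494 and 1230.0 to 1364, and at 42 °C 222 to 240.3 and 194 to 228. Its 37 °C difference was log2 2.60 ± 0.081 in Annapurna and 2.23 ± 0.081 in IR64.

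Within the window of the rule, the 42 °C levels were not all at the control level. In Annapurna, all 3 arrays at 42 °C lay above all 3 controls for 5 of the 17 probe sets, below them for 3, and overlapped them for 9. Over all probe sets 15.5% lay above and 18.9% below in that cultivar. In IR64 the counts were 7 above, 2 below and 8 overlapping, where 20.4% of all probe sets lay above and 61.8% below. The rule fixed how far these means could be from control, so the counts only describe the members. From 37 °C to 42 °C the difference ran from log2 -4.61 to -1.68 in Annapurna and from -4.55 to -1.68 in IR64.

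**Figure D3:**
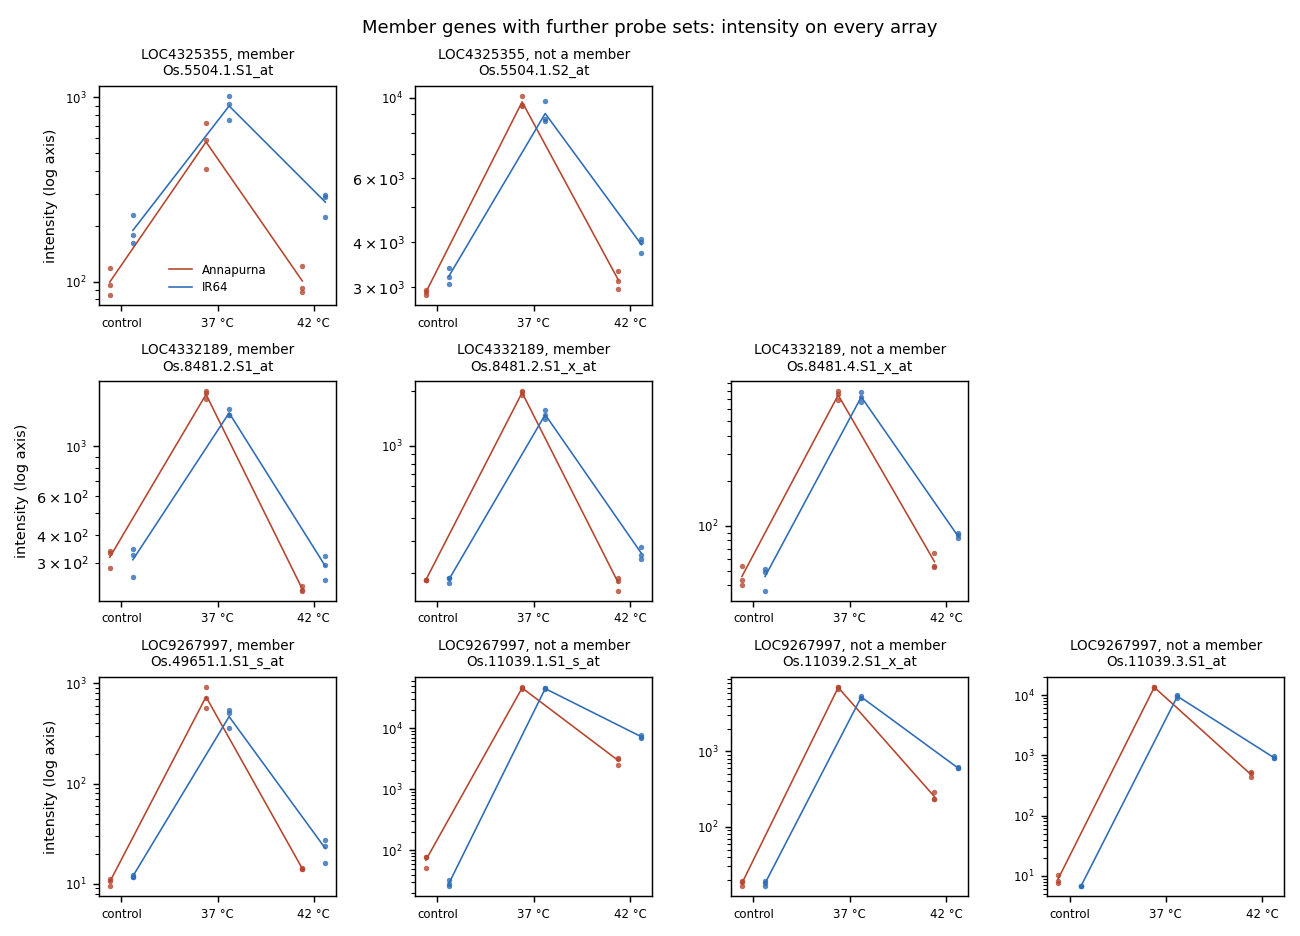
Intensities of all probe sets of LOC4325355, LOC4332189 and LOC9267997, 1 gene per row, on every array, with a logarithmic vertical axis, points for arrays and lines for the group means of each cultivar. For LOC9267997 the probe set in the first panel read 14.1 to 27.2 at 42 °C, while on the other 3 probe sets the 42 °C arrays stayed far above the controls.

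Further probe sets showed that 1 member gene did not keep to the pattern. Of the 14 genes, 9 had a single probe set, 2 had every one of their probe sets among the members, and 3 had 5 probe sets outside the rule. LOC9267997 had 3 of these. The first, which like the member has the suffix s for probes shared between transcripts, read 77.5, 78.0 and 51.6 in the Annapurna controls, 45860.4, 43687 and 47992 after 37 °C, then 3248, 3108 and 2489.9 at 42 °C. It read 25.8, 32.7 and 27.6 in the IR64 controls, 43707, 45553 and 44936 after 37 °C, then 7829.5, 7125 and 6805 at 42 °C. At 42 °C this probe set was still log2 5.13 in Annapurna and 7.35 in IR64 above control, after 9.09 and 9.97 at 37 °C. The second stood at 2.97 and 4.21 and the third at 4.34 and 5.36 at 42 °C. The member probe set correlated with these 3 at 0.80 to 0.90 over the 18 arrays, while they correlated with each other at 0.977 to 0.996. For LOC9267997 the return to control thus rested on 1 probe set of 4, and the data go against calling the gene transient. The probe set of LOC4332189 outside the rule read 40.2, 43.2 and 54.2 in Annapurna controls, 793, 695 and 754 after 37 °C, then 53.0, 54.2 and 65.4 at 42 °C. It missed the rule through IR64, where it stood log2 0.73 above control at 42 °C. For LOC4325355 the further probe set had smaller 37 °C differences, log2 1.74 ± 0.057 in Annapurna and 1.49 ± 0.057 in IR64, and 42 °C differences of 0.11 in Annapurna and 0.29 in IR64. Its shape was thus the same with a smaller peak. Of the 17 member probe sets, 4 carry a suffix that marks probes shared between transcripts.

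**Figure D4:**
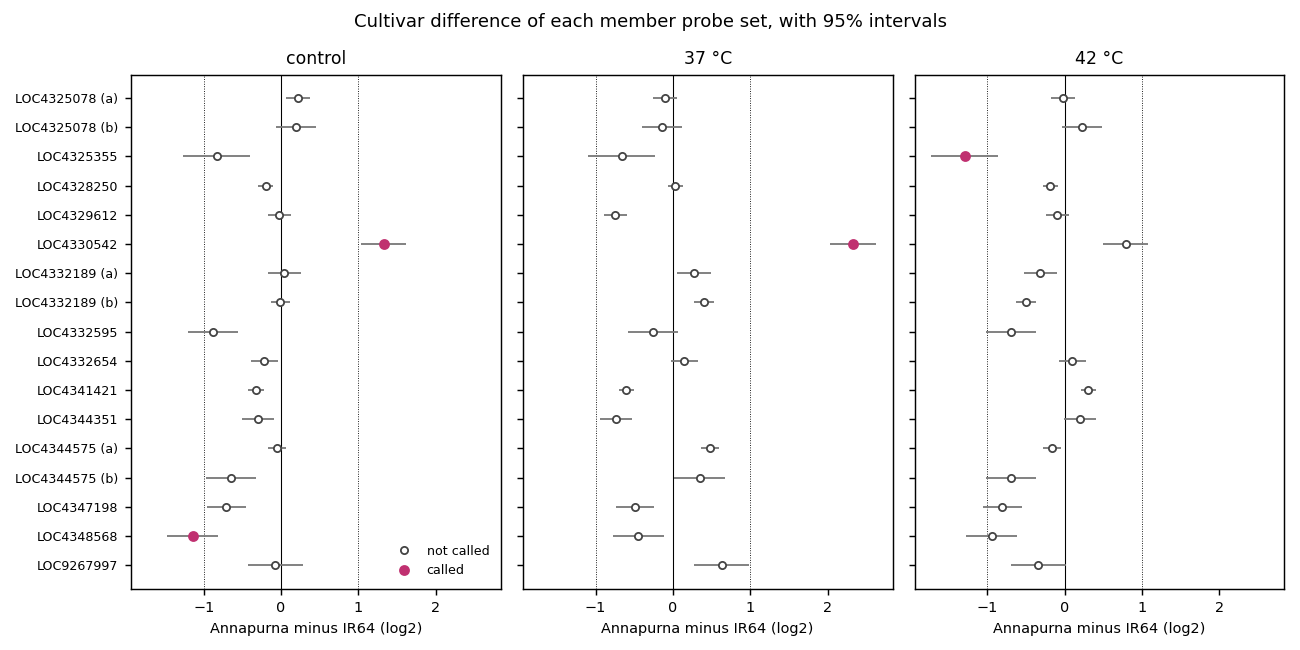
Annapurna minus IR64 difference of each member probe set in log2, at control, 37 °C and 42 °C from left to right, with bars for 95% intervals from the fit and dotted lines at the 2-fold threshold. Filled points passed both thresholds: LOC4330542 and LOC4348568 at control, LOC4330542 at 37 °C and LOC4325355 at 42 °C.

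The rule did not use differences between cultivars, so these could be tested. A probe set was called at a limma adjusted p under 0.05 over all 57258 probe sets and a difference of at least 2-fold. Among the controls 2 of 17 member probe sets were called, 1 higher in each cultivar, where 3.56% of all probe sets were called, 2.09% higher in Annapurna and 1.47% lower. At 37 °C 1 of 17 was called, higher in Annapurna, against 3.14% of all (1.8% higher and 1.34% lower). At 42 °C 1 of 17 was called, lower in Annapurna, against 3.37% of all (1.44% higher and 1.93% lower). The arrays of the cultivars did not overlap for 11 of 17 at control, 13 at 37 °C and 13 at 42 °C, against 76, 75.6 and 30.8% of all probe sets. LOC4330542 was higher in Annapurna at control, by log2 1.33 ± 0.14 (limma adjusted p = 3.3e-06). Without Annapurna control replicate 3, the array with the higher AMY1.1 signal, its control difference was 1.14, and over the 6 arrays left out in turn it ran from 1.14 to 1.45. At 37 °C LOC4330542 was higher in Annapurna by 2.33 ± 0.14 (limma adjusted p = 1.0e-08), or 5.03-fold on the intensity + 16 scale. LOC4330542 has only 1 probe set, so its cultivar differences could not be checked on another. At 42 °C the same probe set stood at 0.79 ± 0.14 and was not called, as it fell short of 2-fold. The only probe set of LOC4348568 has the suffix x, so its probes may bind further transcripts. LOC4348568 was lower in Annapurna at control, with a log2 difference of -1.14 ± 0.15 (limma adjusted p = 2.6e-05), and of -1.03 without IR64 control replicate 3. It stood at -0.45 ± 0.15 at 37 °C and -0.94 ± 0.15 at 42 °C, not called. Without Annapurna 42 °C replicate 1, or without IR64 42 °C replicate 3, LOC4348568 was called at 42 °C as well. LOC4325355 was lower in Annapurna at 42 °C, with a log2 difference of -1.29 ± 0.20 (limma adjusted p = 2.2e-04), and stood at -0.83 ± 0.20 at control and -0.66 ± 0.20 at 37 °C, not called. The further probe set of LOC4325355 differed by log2 -0.15 ± 0.057 at control, 0.11 ± 0.057 at 37 °C and -0.32 ± 0.057 at 42 °C. It was brighter, with 42 °C means of 3141 in Annapurna and 3933 in IR64, against 101 and 270 on the member probe set. The further probe set thus did not show the 2-fold difference, and the call for LOC4325355 rested on its dimmer probe set alone. LOC4332595, at -0.88 ± 0.15 between the controls, was called without IR64 control replicate 1 and not otherwise. The IR64 42 °C arrays are those with the high AMY1.1 signal, and its part in the differences at 42 °C was not tested. The excess of 3' over 5' actin signal was higher in Annapurna at control and at 37 °C. Its part in the cultivar differences was not tested either.

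For 14 of the 17 probe sets the measured difference between cultivars was thus under 2-fold at every step. Without the 2-fold threshold 11 of 17 passed the adjusted p at control, 11 at 37 °C and 10 at 42 °C, against 67.8, 53.5 and 20.6% of all probe sets. Of these, 2 were higher in Annapurna and 9 in IR64 at control, 5 and 6 at 37 °C, and 2 and 8 at 42 °C. Over all probe sets 17.1% were higher in Annapurna and 50.7% in IR64 at control, 13.8 and 39.7% at 37 °C, and 9.01 and 11.6% at 42 °C. LOC4328250 gave a close estimate at 37 °C, with a difference of 0.032 ± 0.046 and a 95% interval of -0.068 to 0.13. LOC4325078 had differences of -0.10 and -0.14 on its probe sets at 37 °C, with intervals of -0.26 to 0.05 and -0.40 to 0.12. The 37 °C responses themselves were used by the rule, so their difference between cultivars is given without a test. The response was larger in Annapurna for 12 of 17 probe sets and in IR64 for 5, with a median of log2 0.23. It differed most for LOC4330542 (1.00 ± 0.19), for 1 probe set of LOC4344575 (0.99 ± 0.21) and, with the larger response in IR64, for LOC4329612 (-0.72 ± 0.10).

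Some named genes had the same course. By the same thresholds 7 named genes, on 8 probe sets, met the rule. These were HSFA2A on 2 of its 3 probe sets, HSP17.8 and HSP26.2 of the small heat shock proteins, the DnaJ-type co-chaperone gene DJC27, the pyruvate decarboxylase gene PDC1 of fermentation, the homeobox gene WOX11 and a gene listed as RFS. A further 6 probe sets met the thresholds with no gene of their own in the annotation and are not described. The third probe set of HSFA2A stood at log2 7.05 in Annapurna and 7.30 in IR64 at 37 °C and at -0.62 and 0.38 at 42 °C, just outside the window. HSFA2A also had the pattern most like the mean of the members, with Pearson r = 0.995 over the 18 arrays on that probe set. The correlations are a description, since the arrays form 6 groups and the members were chosen for this shape. Next came BI-1, the gene of the cell death suppressor Bax inhibitor 1, at 0.989, DJC27 at 0.984, CLPB-M, an organellar protein disaggregase gene, at 0.983, HSP26.2 at 0.982 and PDC1 at 0.981. DJB6, another DnaJ gene, followed at 0.978, the homeobox gene HOX24 at 0.976, OsTLP14 at 0.974 and IRL5 at 0.973. Likeness in shape did not require a large difference: OsTLP14 stood at log2 0.72 in Annapurna and 0.69 in IR64 at 37 °C, and BI-1 at 1.73 in each. Of the members, LOC4328250 was closest to the mean of the others (r = 0.997), while LOC4330542 at 0.78 and LOC4325355 at 0.90 were the least close. These correlations ran over both cultivars together, so level differences between cultivars, such as those of LOC4330542, also enter them.

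Many genes on the small heat shock list were still up at 42 °C, and few on the other heat shock lists were. The lists were known from earlier results of these data, and the comparisons with 37 °C and 42 °C share their controls. The small heat shock list was drawn by name and also took in the HSP100 gene CLPB1 through its synonym hsp101. Its counts are therefore not of small heat shock proteins alone, and CLPB1 is counted again under HSP100. Of the 27 probe sets of 20 genes on this list, 22 rose and 0 fell in Annapurna at 37 °C by the limma test. In IR64 20 rose and 0 fell. Over all probe sets 2.88% in Annapurna and 2.71% in IR64 rose, and 2.24 and 2.02% fell. At 42 °C 14 in Annapurna and 19 in IR64 were still higher than control, against 1.99 and 3.65% of all. Of the 27, 2 met the thresholds of the members. Of 29 probe sets of 20 heat stress factor genes, 12 rose and 1 fell at 37 °C in each cultivar, and at 42 °C 1 rose and 6 fell in Annapurna and 3 rose and 4 fell in IR64, where 2.62 and 2.57% of all fell. All 3 HSP100 probe sets, of genes for protein disaggregases, rose at 37 °C in each cultivar, and 0 in Annapurna and 1 in IR64 were called at 42 °C. Of 8 HSP90 probe sets 3 rose in each cultivar at 37 °C, and of 5 DnaJ probe sets 2. At 42 °C 1 of the 8 and 1 of the 5 rose in each cultivar. HSP26.7 stood at log2 8.45 at 37 °C and 6.02 at 42 °C in Annapurna, HSP18.0 on 1 of its 3 probe sets at 8.69 and 5.97, and CLPB1 at 5.26 and 0.56. In IR64 the values were 8.56 and 8.76 for HSP26.7, 9.13 and 6.83 for the same probe set of HSP18.0, and 5.55 and 1.60 for CLPB1. The other 2 probe sets of HSP18.0 stood at log2 0.29 and -0.14 in Annapurna and 0.26 and -0.34 in IR64 at 37 °C.

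The members did not sit side by side in the genome. In the order of genes in the RefSeq annotation of the japonica assembly ASM3414082v1, no pair of members lay within 10 genes of each other and none lay within 5 genes of a named gene with the same course. The nearest pair, LOC4332595 and LOC4332654, was 67 genes apart. LOC4344351 was 25 genes from WOX11 and LOC4330542 was 45 from HSP17.8. Of 19 directly adjacent genes with a probe set, next to 13 of the members, 2 rose in Annapurna and 2 in IR64 at 37 °C by the limma test, against 2.88 and 2.71% of all probe sets. In each cultivar 1 fell, LOC4325354 in Annapurna (log2 difference -1.20) and LOC4328251 in IR64 (log2 difference -1.09), against 2.24 and 2.02% of all. The gene that rose in both was LOC4341420, beside LOC4341421. It read 169, 191 and 308.5 in Annapurna controls, 14837, 15412 and 14742 after 37 °C, then 1102, 1041 and 1055 at 42 °C. In IR64 it read 62.7, 70.0 and 89.5 in controls, 10374, 10599.7 and 10139 after 37 °C, then 1903, 1942 and 1890.2 at 42 °C. LOC4341420 thus rose by log2 6.02 ± 0.15 and 6.86 ± 0.15 at 37 °C (limma adjusted p = 6.8e-13 and 2.0e-13). It was still higher than control at 42 °C, by 2.22 in Annapurna and 4.43 in IR64 (limma adjusted p = 3.3e-08 and 1.9e-11).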

How the data were processed

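Biotin-labelled RNA of 18 samples was hybridised to 1 array each. The authors deposited 1 linear intensity per probe set and array, made with GCOS per the submitters' processing notes; how probes were summarised is not stated in the labels. From the 57381 probe sets 123 controls were left out. Genes came from the platform annotation, updated through a RefSeq gene table, and 22436 probe sets matched exactly 1 gene. The deposited intensities were used without further normalisation as log2(intensity + 16), and limma 3.58.1 in R 4.3.3 was fitted with 6 group means and trended eBayes (12 residual degrees of freedom), with Benjamini-Hochberg adjustment over 57258 probe sets. The fit was tested on simulated data first. Because the rule used the differences between steps, only cultivar differences of members were tested. The members and gene lists were chosen with earlier results of these data known. Values on every array were given for the 8 members with the highest 37 °C level, the 6 with the largest 37 °C difference, those called between cultivars and the 3 nearest each threshold, and the 10 named genes most like the members were ranked by Pearson correlation. Replicate numbers were not used to pair the arrays in the main fit. Promoter and protein sequences were not analysed here.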

Additional observations from a re-analysis of the deposited data

How the results depend on the processing

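Membership depended on the thresholds and on the amount added before the log. There were 40 member probe sets with a 37 °C threshold of 1.5, 6 with 2.5, 7 with a window of 0.25 and 34 with a window of 1, against 17. With 1 added there were 19, of which 11 were shared with the 17, with 64 added 13 (10 shared), and after quantile normalisation 17 (16 shared). Leaving out each array in turn gave 15 to 18, and 11 of the 17 were kept each time. Only 8 of the 17, of 7 genes, were kept under both other added amounts and quantile normalisation. The same 8 were also kept without any 1 array. Their genes were LOC4325078, LOC4328250, LOC4329612, LOC4332189 (on its x probe set), LOC4332654, LOC4341421 and LOC4348568. The other member genes, LOC4330542, LOC4325355, LOC4332595 and LOC4344575 among them, lost membership in at least 1 of these settings. LOC9267997 was no member with 1 added, nor without IR64 42 °C replicate 1. Named genes meeting the thresholds numbered 6 with 1 added, with 64 added and after quantile normalisation, against 7. The median 37 °C difference was log2 3.14 in Annapurna and 2.71 in IR64 with 1 added, and 2.38 and 2.27 with 64 added. It was 2.42 in IR64 after quantile normalisation. Without single arrays it ran from 2.64 to 2.73 in Annapurna and from 2.42 to 2.54 in IR64. Among cultivar differences, with 64 added 1 probe set was called at control, as LOC4330542 stood at 0.72, and with 1 added 4 were called at 42 °C (LOC4325355, LOC4330542, LOC4344575 and LOC4347198). Without the fold threshold 11, 11 and 10 were called at control, 37 °C and 42 °C. Without single arrays the calls ran from 2 to 3 at control, 1 to 1 at 37 °C and 1 to 2 at 42 °C. With the replicate number as a block the calls were 2, 1 and 1, and it changed none. The deviations of same-numbered arrays correlated at -0.06 to 0.16. Correlations this low do not show whether same-numbered arrays shared a batch. No named cultivar difference reversed under any alternative run. For probe sets near background the size of the log2 difference depends on the amount added. For LOC4329612 in Annapurna it was 5.63 with 1 added and 2.41 with 64. The promoter window alternative was not run.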
